A study of Mus musculus with 4 samples.

Results

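The mitochondrial ribosomal protein genes (*Mrpl* and *Mrps*) were followed in the RNA of FAC-sorted SST interneurons from the basal telencephalon at E14.5. Members were all genes whose symbol is *Mrpl* or *Mrps* followed by a number and at most 1 further letter, which selected 78 of the 56883 genes listed. The control cells came from *Sst-Cre/tdTomato* embryos and the *Dnmt1* KO cells from *Sst-Cre/tdTomato/Dnmt1 loxP2* embryos, and both carried the *Cre* and the *tdTomato* reporter. *Cre* is under the control of the *Sst* locus, so recombination is limited to cells that have switched on *Sst*. There were 2 libraries of total RNA per genotype, each from cells of several pooled embryos, and the comparison asks which transcripts differ once *Dnmt1*, the maintenance DNA methyltransferase, is deleted in these cells. Since nothing ties the libraries to single animals, the p-values below rest on the spread between these pools and not between animals. The main test takes that spread in part from other genes of similar level.

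Mitochondria keep a ribosome of their own, which translates the few mRNAs of the mitochondrial genome into subunits of the respiratory chain and the ATP synthase. Its rRNAs are encoded by mitochondrial DNA, whereas all of its proteins are encoded in the nucleus, made in the cytoplasm and imported. The ribosome has a small subunit, which binds and decodes the mRNA, and a large subunit, which forms peptide bonds. Some of its proteins descend from bacterial ribosomal proteins and others were added in mitochondria. Promoters of such genes often carry sites for NRF1, ETS factors such as GABP, and YY1, which are known activators of nuclear genes for mitochondrial proteins.

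Of the 78 genes, 51 encode proteins of the large subunit and 26 proteins of the small subunit. *Mrps18a* and *Mrps30* are counted with the large subunit, in which their proteins lie despite their symbols. *Mrps36* belongs to neither subunit, since its product is a component of the 2-oxoglutarate dehydrogenase complex. By the prefix of their unified protein names, 46 were counted as having a bacterial counterpart and 31 as specific to mitochondria. The latter include *Mrps18a* and *Mrps18b*, although both are relatives of the bacterial protein S18. The 78 genes lie on 17 chromosomes.

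The promoters of these genes were read from RefSeq (GRCm38.p6), 250 bases before to 50 bases after the start, and 75 promoters of 69 members were found. The core of the NRF1 site, CGCATGCG, is shown because it is the rarest of the 3 motifs searched. The 30 bases around each copy are printed on the strand of the gene, with the core in capitals and with positions in GRCm39, where each promoter matched once. They are ordered by gene, and the number in front of the sequence is the first base of the core counted from the start.
*Mrpl9*, chr3:94350605-94350634, plus strand, -27: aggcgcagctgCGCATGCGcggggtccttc
*Mrpl10*, chr11:96932262-96932291, plus strand, -135: gcccagctccaCGCATGCGcatagcggccc
*Mrpl17*, chr7:105460286-105460315, minus strand, -10: ccgagttactgCGCATGCGtcctctgagac
*Mrpl22*, chr11:58062447-58062476, plus strand, -32: gcctcggactgCGCATGCGtatagtcagcc
*Mrpl32*, chr13:14787690-14787719, minus strand, -86: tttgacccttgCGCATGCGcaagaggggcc
*Mrpl32*, chr13:14787627-14787656, minus strand, -23: ggcggacttaaCGCATGCGctcagcccgcg
*Mrpl39*, chr16:84532238-84532267, minus strand, -124: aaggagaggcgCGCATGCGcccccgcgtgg
*Mrps18b*, chr17:36227538-36227567, minus strand, -224: aaacggcccgaCGCATGCGcactgggagca

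The NRF1 core was in 7 of the 75 promoters of members (9.33%), compared with 1.87% of all promoters and 3.86% of the promoters of protein-coding genes tested. On either strand, the ETS core CCGGAAG was in 26 promoters (34.7%, against 8.86% and 17.2%). The YY1 core AAGATGGC was in 12 promoters (16.0%, against 2.75% and 4.40%). At least 1 of the 3 was in 38 promoters (50.7%), compared with 23.5% for the protein-coding genes tested. The NRF1 core reads the same on both strands, and the end of an ETS core can overlap the beginning of a YY1 core. Members carried a median of 21 CpGs per promoter, the same as the promoters of protein-coding genes tested, whereas the median over all promoters was 7. DNA methylation of these promoters was not analysed here.

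All 78 genes were expressed above the limit for testing, a mean of 10 normalized counts over the 4 libraries. Normalized counts are reads divided by 1 size factor per library. Means ran from 37.2 (*Mrpl36*) to 576 (*Mrps5*), with a median of 145 normalized counts. Per kilobase of transcript, the level was highest for *Mrpl52* (473 normalized counts per kb), a large-subunit protein, and lowest for *Mrps18c* (13.0), with a median of 69.8.

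Libraries held between 6970247 and 8376711 reads. *Dnmt1* itself, the targeted gene, had 2238 and 2341 normalized counts in the control and 2164 and 2210 in the *Dnmt1* KO libraries, a log2 fold change of -0.07 (SE 0.05, adjusted p = 0.461, limma). These are totals over the whole gene and do not separate the floxed exons from the others, so they do not check the labels. Genes expressed in SST interneurons were present in all 4 libraries, with *Sst* at 5580 and 5963 against 8303 and 7825 normalized counts. Of 12 such genes, 11 were called higher in *Dnmt1* KO libraries, with a median log2 fold change of 0.58. Many of these genes, such as *Gad1* and *Slc32a1*, mark GABAergic interneurons in general. The paper reports several of them, among them *Erbb4*, *Sox6* and *Lhx6*, as increased after *Dnmt1* deletion. Whether the share of SST interneurons differed between genotypes was not tested. In bulk libraries, fewer cells of a type and less RNA per cell cannot be told apart.

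In *Dnmt1* KO cells, 2 of the 78 mitochondrial ribosomal protein genes were lower, *Mrpl40* and *Mrpl38*, and 0 were higher (limma on log2 values, Benjamini-Hochberg over all genes, called at an adjusted p under 0.05). Both encode proteins of the large subunit that bacteria lack and that lie in its central protuberance. The called share of 2.56% compares with 17.3% of the 14323 genes tested, of which 8.99% were called lower and 8.3% higher.

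*Mrpl40* (ENSMUSG00000022706) lies on chromosome 16 from 18690767 to 18696113 on the minus strand (GRCm39). The control libraries held 151.2 and 139.9 normalized counts of it and the *Dnmt1* KO libraries 88.8 and 68.8, from 169, 137, 90 and 63 reads. Both *Dnmt1* KO libraries were below both controls, with a mean of 145.5 ± 8.04 against 78.8 ± 14.1 (SD, n = 2 per genotype). The log2 fold change was -0.89 (SE 0.18, 95% interval -1.27 to -0.50, adjusted p = 0.00331, limma), or 0.541 of the control level. *Hira*, a histone chaperone gene on the opposite strand whose start is 0.326 kb away, overlaps the annotated gene, as do *Gm28539* and *Gm60171*. Reads of overlapping genes can only be told apart if they were counted by strand, which was not stated. *Hira* had 411 and 404 normalized counts in the control and 477 and 441 in the *Dnmt1* KO libraries (log2 fold change 0.17, adjusted p = 0.232), the opposite direction from *Mrpl40*. *Gm28539* had 101 and 74.5 against 28.6 and 83.0 normalized counts, which overlap between genotypes (-0.82, adjusted p = 0.135). The promoter of *Mrpl40* held 28 CpGs and none of the 3 motifs.

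*Mrpl38* (ENSMUSG00000020775) lies on chromosome 11 from 116022641 to 116029700 on the minus strand and overlaps no other annotated protein-coding or lncRNA gene. It had 204.0 and 207.2 normalized counts in the control against 123.3 and 125.6 in the *Dnmt1* KO libraries, from 228, 203, 125 and 115 reads. Replicates lay close together, and the genotypes were far apart. The log2 fold change was -0.72 (SE 0.14, 95% interval -1.02 to -0.42, adjusted p = 0.00217, limma), which is 0.607 of the control level.

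No call was made among the other tested protein-coding genes within 100 kb of *Mrpl38*, which had log2 fold changes between -0.16 (*Ten1*) and 0.38 (*Trim65*). Within 100 kb of *Mrpl40*, *Cdc45*, a replication gene 64.6 kb away, was also called lower, with 76.96 and 83.7 against 37.5 and 46.98 normalized counts (log2 fold change -0.92, adjusted p = 0.0132, limma). *Mrpl46*, *Mrpl48* and *Mrpl52* encode some of the other proteins of the central protuberance, not the full set, and were chosen after their values were seen. Their log2 fold changes were -0.27, -0.03 and -0.15, and none was called. These values do not speak for the rest of the central protuberance.

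**Figure D1:**
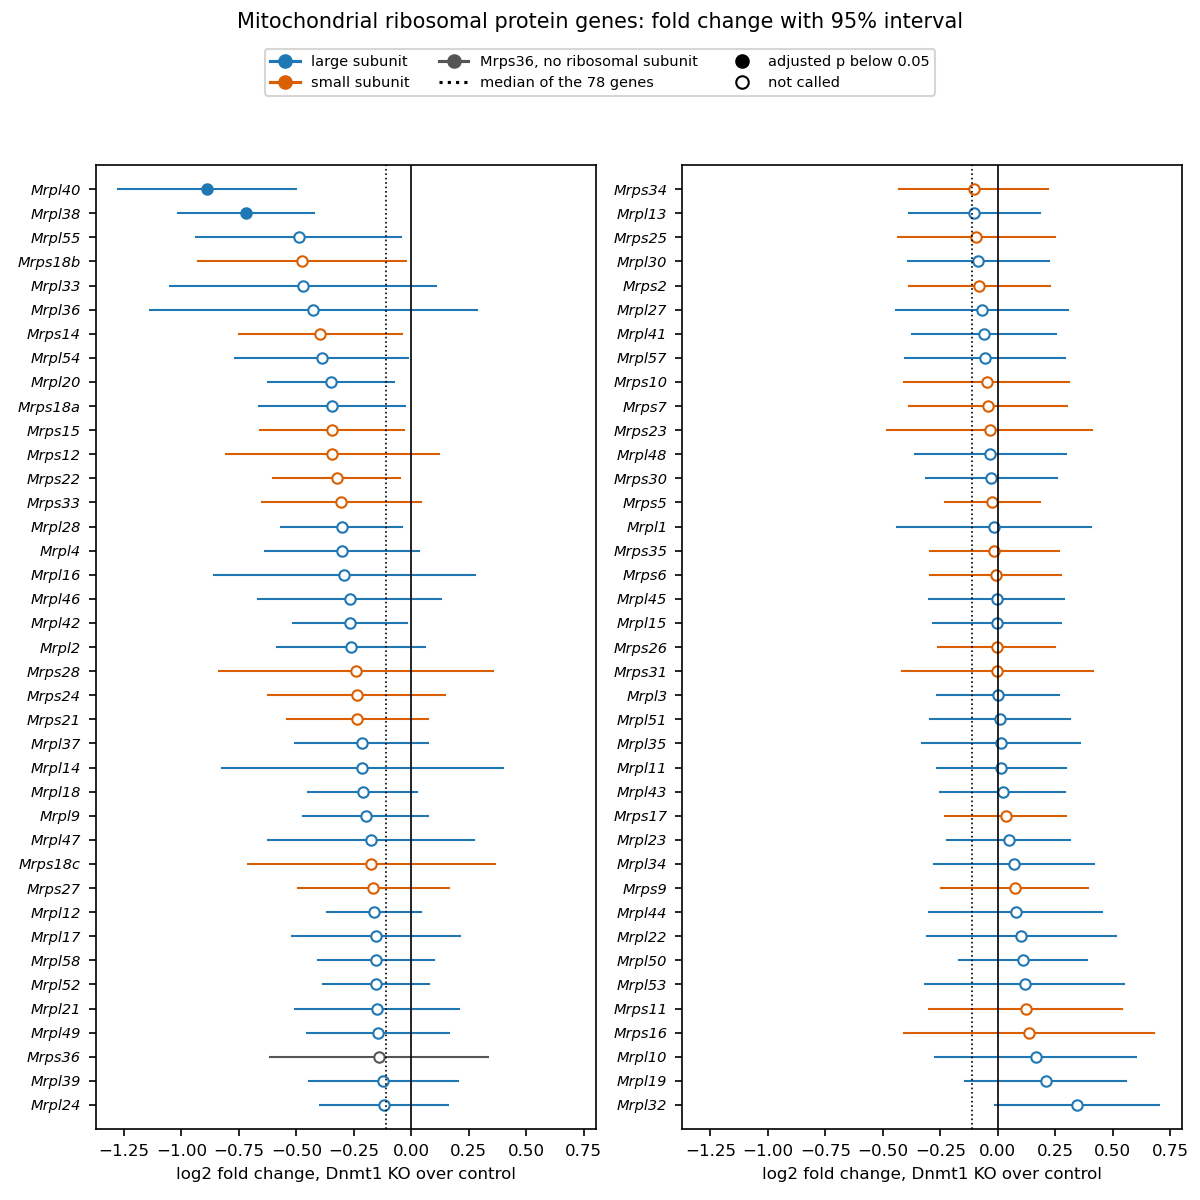
Log2 fold change (Dnmt1 KO over control, horizontal axis) of each of the 78 genes with its 95% interval, in order of size and coloured by subunit. Filled points mark the 2 called genes, Mrpl40 and Mrpl38, at the top left, and the dotted line is the median of the 78 genes at -0.11.

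The other 76 genes passed no adjusted test. Their estimates leaned to one side, since 60 of the 78 log2 fold changes were below 0 (76.9%), compared with 50.5% of all genes tested. The median over the 78 genes was -0.11, the median over all tested genes was -0.0033, and the median over protein-coding genes was -0.02. In 30 members both *Dnmt1* KO libraries were below both controls (38.5%, against 29.0% of all genes), and in 4 members both were above (5.13%, against 28.4% of all genes). Those 4 were *Mrpl32*, *Mrpl19*, *Mrpl53* and *Mrpl50*. At an unadjusted p under 0.05 there were 12 members, all lower (15.4%, against 30.2% of all genes).

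The changes were small. The SD of the log2 fold change over the members was 0.203, compared with 0.50 over all genes. It was within 0.25 of 0 for 57 members (73.1%, against 56.8% of all genes), below -0.25 for 20 (25.6%, against 23.3%), and above 0.25 for 1 (1.28%, against 19.9%). With a median SE of 0.154, these libraries could not resolve changes of the size of the median in single genes. Even so, the 95% interval stayed within 1 on either side of 0 for 74 of the 78 genes and within 0.5 for 41.

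Summed over the 78 genes, control libraries held 12551 and 12493 normalized counts and *Dnmt1* KO libraries 11612 and 11353, both below both of the controls. Taken pair by pair, the members' median log2 ratio of a *Dnmt1* KO library over a control library ran from -0.13 to -0.08. It was -0.05 between the control libraries and -0.03 between the *Dnmt1* KO libraries.

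Genes of the large subunit had a median log2 fold change of -0.12, with 37 of 51 below 0 and 2 called. Genes of the small subunit had a median of -0.09, with 22 of 26 below 0 and 0 called by limma, while 4 had an unadjusted p under 0.05. The 46 genes with a bacterial counterpart and the 31 specific to mitochondria had similar medians, -0.11 and -0.10. Both called genes are of the mitochondria-specific kind. All 10 mitochondria-specific genes of the small subunit were below 0 by between 0.0021 and 0.48, and none was called.

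*Mrps12* encodes a protein of the decoding centre. It had 76.1 and 112.3 normalized counts in the control and 71.0 and 74.3 in the *Dnmt1* KO libraries, so that the control libraries differed more than the genotypes (log2 fold change -0.34, SE 0.22, adjusted p = 0.316). It overlaps *Sars2*, a mitochondrial seryl-tRNA synthetase gene on the opposite strand with a log2 fold change of 0.06.

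The 3 relatives of the bacterial protein S18 are *Mrps18a*, in the large subunit, and *Mrps18b* and *Mrps18c*, in the small subunit. *Mrps18b* had 76.1 and 80.7 against 55.2 and 56.8 normalized counts, and the genotypes did not overlap (log2 fold change -0.48, SE 0.21, adjusted p = 0.145). In *Mrps18a* the counts were 172.7 and 157.2 against 137.1 and 122.4 (-0.34, SE 0.15, adjusted p = 0.133). *Mrps18c* was low in every library, with 55.5 and 47.0 against 44.4 and 45.9 normalized counts (-0.17, SE 0.25, adjusted p = 0.699). All 3 estimates were below 0, and none passed the adjusted test.

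*Mrps5* and *Mrps28* encode further small-subunit proteins and were the highest and among the lowest of all members by normalized count. *Mrps5* had 551 and 608 against 620 and 523 normalized counts, with overlapping genotypes (log2 fold change -0.02, 95% interval -0.23 to 0.18). *Mrps28* had 39.4 and 53.1 against 42.4 and 34.96 (-0.24, SE 0.28). *Mrps36*, the dehydrogenase component, had 60.9 and 72.5 against 60.2 and 60.1 normalized counts (-0.14, SE 0.22).

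Among genes of the large subunit, *Mrpl12* encodes the stalk protein that recruits translation factors and has been reported to bind the mitochondrial RNA polymerase. Its counts were 419.7 and 432.9 against 396.5 and 366.0, which did not overlap (log2 fold change -0.16, SE 0.10, adjusted p = 0.281). *Mrpl58* encodes a peptidyl-tRNA hydrolase built into the ribosome, which can release stalled chains. It had 238.9 and 254.2 against 218.0 and 225.1 normalized counts (-0.15, SE 0.12, adjusted p = 0.424). *Mrpl44*, a relative of RNase III, had 96.6 and 97.0 against 96.7 and 108.2 normalized counts (0.08, SE 0.18), and *Mrps30* had 173.6 and 182.7 against 174.6 and 174.8 (-0.03, SE 0.13). Neither of the latter pair separated the genotypes.

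Of the most abundant members, *Mrpl18*, a counterpart of the bacterial protein that binds 5S rRNA, had 329 and 384 against 322 and 293 normalized counts (log2 fold change -0.21, adjusted p = 0.217). *Mrpl52* had 294 and 320 against 276 and 275 (-0.15, adjusted p = 0.378). *Mrpl3*, a core protein of the large subunit, had 258 and 263 against 234 and 291 normalized counts, the estimate closest to 0 of these (0.0007, 95% interval -0.27 to 0.27). *Mrpl36*, the least abundant member, had 54.6 and 31.6 against 37.5 and 25.1 normalized counts and spread as much within as between genotypes (-0.43, SE 0.33).

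A few further genes were chosen after their values were seen. *Mrpl32*, with 2 copies of the NRF1 core, had the highest estimate of all members, with 98.4 and 94.9 against 118.4 and 127.8 normalized counts (log2 fold change 0.34, SE 0.17, adjusted p = 0.183). *Mrpl20*, the counterpart of a bacterial assembly protein, came closest to the threshold, with 237.1 and 232.8 against 197.3 and 171.5 (-0.35, SE 0.13, adjusted p = 0.0744). *Mrpl55* had 112.8 and 89.8 against 81.9 and 62.3 normalized counts (-0.49, SE 0.21, adjusted p = 0.128). In each of these genes the genotypes did not overlap. The 7 genes with the NRF1 core ran from -0.48 (*Mrps18b*) to 0.34 (*Mrpl32*) in log2 fold change, and none was called.

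**Figure D2:**
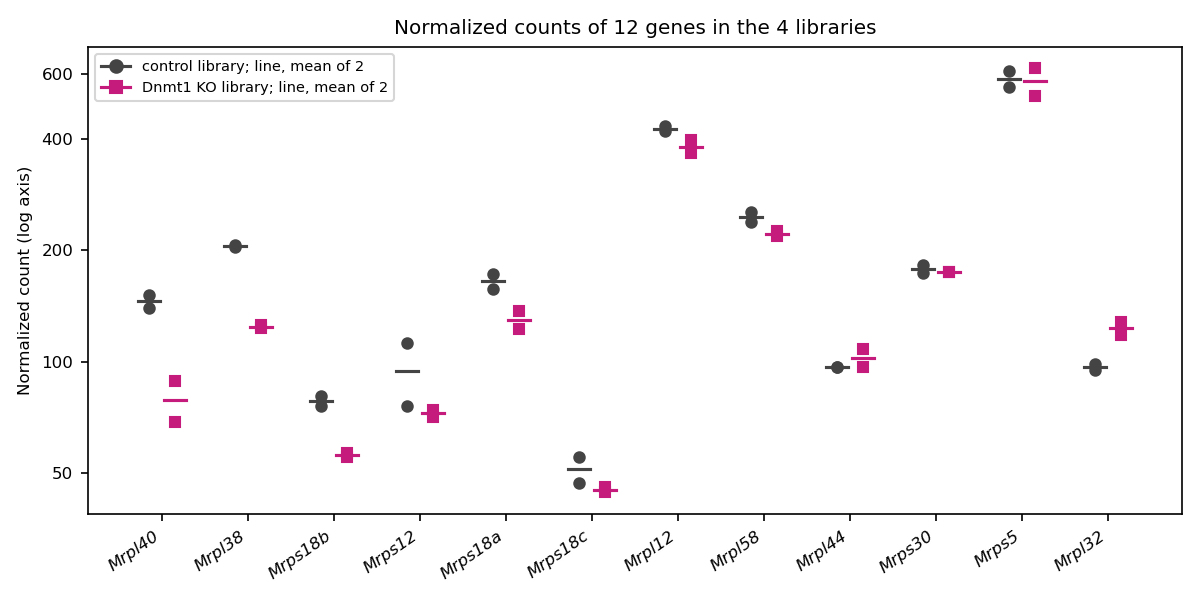
Normalized count (log axis) of 12 members in the control (circles) and Dnmt1 KO (squares) libraries, with the mean of 2 as a line. The genotypes are far apart in Mrpl40 and Mrpl38, overlap in Mrps5 and Mrps30, and lie the other way round in Mrpl32.

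Neighbours and copies of the members were examined next. Of the 78 genes, 61 overlap another annotated protein-coding or lncRNA gene (78.2%, against 73.6% of protein-coding genes tested), 58 of them on the opposite strand. *Mrpl46* and *Mrps11* overlap each other on chromosome 7 and had log2 fold changes of -0.27 and 0.12. *Mrpl43* overlaps *Twnk*, which encodes the mitochondrial DNA helicase, and the log2 fold changes were 0.02 and 0.23. A divergent partner was a protein-coding gene on the opposite strand that starts within 1000 bases upstream of the member's own start. Genes that start inside the member, as *Hira* does in *Mrpl40*, were not counted. Such a partner was annotated for 6 members. Of these partners, only *Fau*, a cytoplasmic ribosomal protein gene beside *Mrpl49*, was called (log2 fold change -0.32, adjusted p = 0.00205, limma), while *Mrpl49* had -0.15.

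Among 6 pseudogenes named after members, only *Mrpl23-ps1* on chromosome 2 was high enough to be tested. It had 56.4 and 49.0 against 25.6 and 32.8 normalized counts (log2 fold change -0.84, adjusted p = 0.055). *Mrpl23* itself had 221.0 and 196.0 against 216.0 and 214.1 (0.05, adjusted p = 0.847). Reads that fit both could be placed on either, so both values are uncertain.

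Transcripts of mitochondrial ribosomal proteins are short, and length moved with the fold change in these libraries. The median transcript of a member had 1916 bases (range 555 to 7414), compared with 3815 for the protein-coding genes tested, and 66 of the 78 were shorter than that. With protein-coding genes split into 5 equal groups by length, the shortest group, of 108 to 2166 bases, had a median log2 fold change of -0.13, and 69.7% of it were below 0. The 43 members in it had a median of -0.21, with 36 below 0 and both called genes among them. In the next 2 groups the 15 and 14 members had medians of -0.0052 and -0.02, and all protein-coding genes there -0.04 and -0.0080. Once a smooth trend over length and GC content had been taken out of each library, the members' median was -0.08, 51 of 78 were below 0, and all genes stood at 49.9% below 0. The 2 called genes stayed called, *Mrpl40* at -0.80 (adjusted p = 0.00643, limma) and *Mrpl38* at -0.61 (adjusted p = 0.0072, limma). The part of length in the members' lower values was not tested beyond this.

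**Figure D3:**
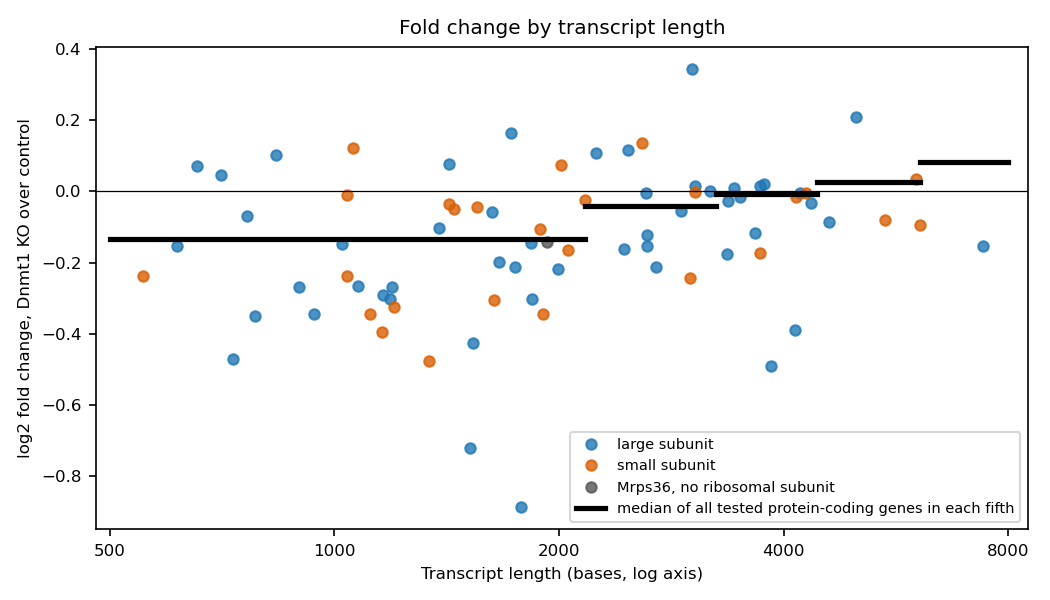
Log2 fold change (Dnmt1 KO over control) of the 78 genes against transcript length in bases (log axis), with black bars for the median of all tested protein-coding genes in each of 5 length groups, drawn within the range of the members. The medians rise from -0.13 in the shortest group to 0.08 in the longest, and most members lie in the shortest.

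Markers of cells other than SST interneurons also moved with genotype. Of 10 blood genes, 7 were tested and all 7 were called lower (median log2 fold change -2.09), with summed counts of 2425 and 2259 in the control and 571 and 567 in the *Dnmt1* KO libraries. *Hbb-y*, an embryonic globin, was the furthest of these (-3.44). All 11 genes of cycling cells were called lower (median -0.62, summed counts 6888 and 6585 against 4664 and 4672), led by the mitotic kinase gene *Aurkb* (-1.26). Without control replicate 1, 6 of the 11 were called.

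Of 9 radial glia genes, 7 were called lower, led by *Hopx* (-1.86), and *Sox2* was called higher (0.40). The median was -0.84, with sums of 10171 and 10258 against 6029 and 6230. *Hopx* lay near the limit for testing, with 23.3 and 16.3 against 4.93 and 4.37 normalized counts. Of 8 genes of pallial excitatory cells, 6 were called lower (median -0.93, sums 2660 and 2696 against 1510 and 1377), led by the glutamate transporter gene *Slc17a6* (-1.25). Of 8 vascular and microglial genes tested, 7 were called lower (median -1.23, sums 479 and 518 against 192 and 247), led by *Csf1r* (-1.42). Without control replicate 1 and without control replicate 2, 4 and 3 of these were called. The microglial genes *Aif1* and *C1qa* were too low to be tested, with at most 9.19 normalized counts in any library. Genes of the dissociation response gave 0 calls among 8 tested by limma, with a median of 0.22 and an unadjusted p under 0.05 in 2, and 1 call, *Dusp1* (0.39, adjusted p = 0.0417), with the trend over length and GC content removed. The part of these cells in the members' values was not tested.

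Other lists of mitochondrial translation had medians on either side of 0. The 5 ribosomal subunits under other symbols had a median log2 fold change of 0.0072, and limma called 0 of them, with 1 at an unadjusted p under 0.05. *Dap3*, a GTP-binding protein of the small subunit, had 282 and 263 against 326 and 295 normalized counts (0.19, adjusted p = 0.282). *Aurkaip1*, a small-subunit protein, had 445 and 445 against 334 and 402 (-0.28, adjusted p = 0.0817), and passed the threshold without *Dnmt1* KO replicate 2 (-0.41, adjusted p = 0.0162). *Gadd45gip1*, of the large subunit, was at -0.20, and *Ptcd3* and *Chchd1*, of the small subunit, at 0.05 and 0.0072.

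Among 26 genes of ribosome assembly and rRNA modification, 13 were below 0 and the median was 0.01. The 1 called gene, *Gtpbp10*, a GTPase of large-subunit assembly, had 88.6 and 135.8 against 71.0 and 61.2 normalized counts (log2 fold change -0.73, SE 0.22, adjusted p = 0.0342, limma). The call was lost without control replicate 2 (-0.42, adjusted p = 0.366) and without *Dnmt1* KO replicate 2 (-0.62, adjusted p = 0.0633). Mitochondrial translation factors gave 0 calls of 14 by limma (median 0.03, 2 at an unadjusted p under 0.05).

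Of 17 mitochondrial aminoacyl-tRNA synthetases, *Lars2* was called lower, with 44144 and 37075 against 31309 and 33659 normalized counts (-0.32, adjusted p = 0.00145, limma), a call that DESeq2 did not make (adjusted p = 0.123). *Lars2* made up most of that list's summed counts of 45856 and 38650 in the control libraries, and the median of the list was -0.0026. The next highest gene of the list, *Iars2*, had 287 and 230 normalized counts in the control libraries. Whether all reads counted as *Lars2* came from its mRNA was not tested. Genes of mitochondrial DNA expression had a median of -0.13 with 0 of 17 called by limma and 1, the mitochondrial RNA polymerase gene *Polrmt*, at an unadjusted p under 0.05 (-0.36, adjusted p = 0.0664). *Tfam*, whose product packages mitochondrial DNA and acts in its transcription, had 225 and 298 against 225 and 248 normalized counts (-0.13). Of the biogenesis regulators, 7 of 8 were tested and 0 called by limma, with a median of 0.13, or 0.0020 with the trend over length and GC content removed. *Nrf1*, *Gabpa* and *Yy1*, whose products bind the NRF1, ETS and YY1 motifs above, had log2 fold changes of -0.10, -0.06 and 0.15, none of them called. *Esrra* had 85.9 and 67.4 against 94.7 and 111.4 normalized counts (0.43, adjusted p = 0.162).

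The RNAs that these ribosomes contain and translate were measured in the same libraries. Both mitochondrial rRNAs were called lower by 0.16 on the log2 scale, with *mt-Rnr2* at 294314 and 284653 against 268244 and 249308 normalized counts (adjusted p = 0.00254, limma). The libraries had been depleted of rRNA, so these counts are what the depletion left. With the trend over length and GC content removed, the log2 fold changes were -0.45 for *mt-Rnr1* and -0.55 for *mt-Rnr2*. Without *Dnmt1* KO replicate 2 neither was called (*mt-Rnr2* -0.11, adjusted p = 0.0697), and without control replicate 1 only 1 was. Of 13 mitochondrial mRNAs, 6 were called lower and 1 higher, with a median of -0.19. The 7 calls became 3 without *Dnmt1* KO replicate 2 and 4 without control replicate 1, and 11, all lower, with the trend over length and GC content removed, where the median was -0.37.

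The largest fall among the called mitochondrial mRNAs was in *mt-Nd6*, from 366 and 413 to 310 and 284 normalized counts (-0.39, adjusted p = 0.0199, limma), and with that trend removed it was at -0.75 (adjusted p = 0.000128). Without *Dnmt1* KO replicate 2 and without control replicate 2 the *mt-Nd6* call was lost, at -0.33 (adjusted p = 0.0898) and -0.30 (adjusted p = 0.162). *mt-Nd3*, which encodes another subunit of respiratory complex I, rose from 193 and 183 to 282 and 276 (0.57, adjusted p = 0.00372, limma). Its call was lost once the trend over length and GC content was removed (0.13, adjusted p = 0.533, limma). The parts of length and of GC content in that loss were not separated.

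Genes of the cytoplasmic ribosome were compared on the same scale. Of 78 tested, 53 were called lower and 0 higher by limma, and 77 had a log2 fold change below 0, with a median of -0.22. With the trend over length and GC content removed, the 53 calls became 19, all lower, and 56 of the 78 were below 0, beside the 2 calls and 51 below 0 of the mitochondrial set. The medians were then -0.07 for the cytoplasmic and -0.08 for the mitochondrial set. *Rps24*, the called gene with the largest fall before that removal, had 3699 and 3955 against 2861 and 2799 normalized counts (-0.43). Cytoplasmic ribosomal protein genes had higher counts and a smaller median SE (0.0615) than for mitochondrial ribosomal proteins (0.154). No test of the difference between the sets was made.

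**Figure D4:**
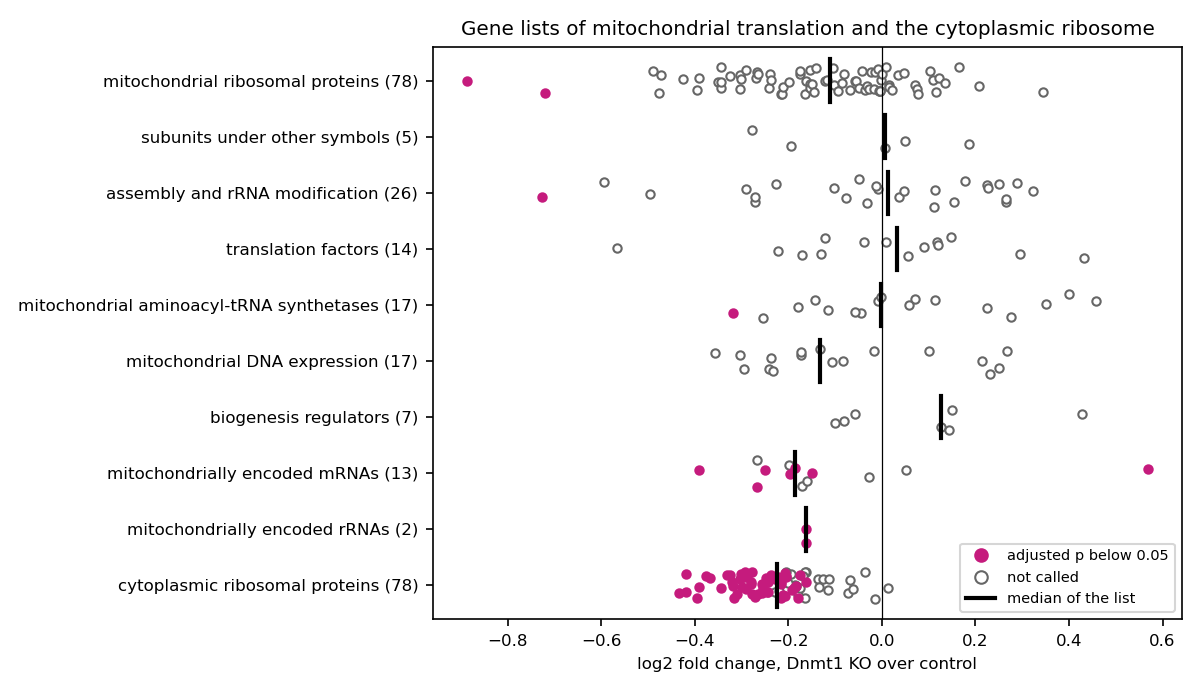
Log2 fold change (Dnmt1 KO over control) of each gene in 10 lists, 1 row per list with the number of genes tested, where filled points are called genes and the bar is the list's median. Cytoplasmic ribosomal proteins lie almost wholly below 0 with 53 called (19 with the trend over length and GC content removed), whereas the mitochondrial ribosomal proteins hold 2 called genes and a median of -0.11.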

How the data were processed

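RNA sequencing of FAC-sorted tdTomato-positive cells was analysed for 2 control and 2 *Dnmt1* KO libraries, grouped by the sample labels. The authors prepared stranded, rRNA-depleted total RNA libraries, and their processing notes name Trim Galore, STAR, GRCm39, Salmon and DESeq2. What they deposited, as a signal, are normalized counts of genes in single libraries. All values were whole multiples of 1 unit per library to within 0.0001, which gave back 6970247 to 8376711 reads per library. The strand setting was not given in the sources used here. No further column of values per sample was left unused.

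The test was limma 3.58.1 (R 4.3.3, variance trend, genotype as the only term) on log2(normalized count + 1) for genes whose mean reached 10, with Benjamini-Hochberg adjustment over all 14323 genes. Fold changes are on this scale, which understates those of low genes. For single values, an exact permutation test of 2 against 2 cannot go below p = 0.333. The limma, edgeR, DESeq2, limma-voom, trend-removed and replicate-block fits were tried on simulated data with the same dispersion for every gene. The other alternatives and the promoter and neighbour steps were not. Alternatives were pseudocounts of 0.5 and 10, minimum means of 1 and 50, TMM, quantile normalization, no variance trend, edgeR 4.0.16, DESeq2 1.42.0 and limma-voom on the recovered reads, a replicate block, the omission of 1 library at a time, and removal of a length and GC trend (natural spline, 5 degrees of freedom).

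Positions, overlaps and lengths (transcript with the longest coding sequence) came from GENCODE for GRCm39. Members and lists were chosen with earlier results of these data known. Genes named are called members, the 5 most and 2 least abundant members, members with a special role, subunits under other symbols, and each list's most changed called genes. All others were chosen after their values were seen.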

Additional observations from a re-analysis of the deposited data

How the results depend on the processing

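*Mrpl40* and *Mrpl38* were called under 15 of the 16 alternatives, and both stayed below 0 in all 16, at -1.07 to -0.71 and -0.73 to -0.61. Without the variance trend, limma called 0 genes of 14323 (0 lower and 0 higher, smallest adjusted p 0.0592, 3339 at an unadjusted p under 0.05) and 0 members (*Mrpl40* adjusted p = 0.0904, *Mrpl38* 0.0645, 9 members at an unadjusted p under 0.05). DESeq2 called 1327 genes (687 lower, 640 higher). With 1 library left out, 1525 to 2205 genes were called (738 to 1246 lower, 787 to 959 higher), with 1648 without control replicate 1 and 1525 without control replicate 2, and 2 to 4 members. The 4 came without *Dnmt1* KO replicate 1, which added *Mrpl55* (adjusted p = 0.0454) and *Mrpl20* (0.0488). The lone library left in a genotype is then assumed to vary like the others.

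The members' median of -0.11 was -0.080 with the length and GC trend removed, -0.093 at a minimum mean of 50, -0.049 with quantile normalization (46 of 78 below 0) and -0.137 to -0.088 with 1 library left out. Over genes, the deviations of same-numbered libraries from their genotype means had a correlation of -0.08. With 2 libraries per genotype this could only show a large shared effect, so it cannot exclude a pairing, and none was assumed. With the replicate block 2957 genes and the same 2 members were called, and *Aurkaip1* passed the threshold (adjusted p = 0.0459). Single log2 fold changes near 0 reversed: *Mrps5* 0.031, *Mrpl52* 0.071, *Mrpl3* -0.050 and *Ptcd3* -0.028 with the length and GC trend removed, *Mrpl3* -0.0037 with limma-voom, *Mrps30* 0.021 with quantile normalization, and, over the fits with 1 library left out, *Chchd1* (-0.084 to 0.098), *Mrps5* (-0.146 to 0.099), *Mrpl3* (-0.156 to 0.157), *Mrpl44* (-0.0022 to 0.158), *Ptcd3* (-0.029 to 0.129) and *Mrps30* (-0.065 to 0.0090). DESeq2 lost *Lars2* (adjusted p = 0.123), *Gtpbp10* (0.139), *mt-Nd6* (0.117) and *Csf1r* (0.0967), limma-voom lost *Gtpbp10* (0.0521), and quantile normalization lost *Gtpbp10* (0.0785). The cause of these differences was not tested. Quantile normalization also left *mt-Rnr2* uncalled, with a median log2 fold change of 0.0 for the mitochondrial rRNAs. It sets genes of equal rank to equal values in every library, so it cannot test that call. With 25 to 620 normalized counts per library, changes of the size of the members' median could not be resolved gene by gene.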
